A study of Homo sapiens with 30 samples.

Results

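The genes described here encode the proteasome, its regulators and the factors that assemble it. Members were the genes whose symbols begin with PSMA, PSMB, PSMC, PSMD, PSME, PSMF or PSMG followed by a number, without the immunoproteasome genes PSMB8 and PSMB9 and without pseudogenes. The pattern matched 49 of the 21112 genes in the files, and 46 were kept after PSMB8, PSMB9 and PSMC3IP, the gene of a protein that only interacts with a subunit, were set aside. They fall into 8 classes, which are 8 core alpha genes, 9 core beta genes, 6 cap ATPases, 11 cap non-ATPase subunits, 3 cap chaperones, 4 core chaperones, 4 activators and 1 inhibitor.

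RNA-sequencing was performed in 4 human diffuse large B-cell lymphoma (DLBCL) cell lines. OCI-Ly10 and TMD8 belong to the activated B-cell-like (ABC) subtype, while HT and K422 belong to the germinal center B-cell-like (GCB) subtype. Per the labels, cells were grown in RPMI-1640 with FCS, whereas the study's methods name Iscove's medium for OCI-Ly10 and TMD8, so that medium and subtype may coincide and cannot be told apart in comparisons between subtypes. Cells received 0.5 µM AZD8186, an inhibitor of PI3Kβ and PI3Kδ, or DMSO as control. They were collected after 6, 12, 18 and 24 h, except that TMD8 has no 12 h samples. Each combination of line, time and treatment is 1 library, so that the 30 libraries form 15 pairs of AZD8186 and DMSO, with 4 pairs each in OCI-Ly10, HT and K422 and 3 in TMD8. The design text of the series calls the controls untreated, whereas the sample labels name DMSO. There are no replicate cultures at one time point, and the pairs of a line or subtype stood in for replicates. The p-values measure the spread left after the terms of each fit (line and time, or pair), and not that between replicate cultures. In tests of differences between lines or subtypes, each line had its own term. Those p-values therefore do not measure how far lines of a subtype differ from each other.

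Total counts ranged from 15820230 to 23579029 per library. The B cell genes CD79A and CD79B were expressed in every line, at 152 TPM or more, while MS4A1 was low in HT (5.48 to 16.2 TPM). The markers of T cells, myeloid cells, stroma and epithelium reached at most 2.9 TPM, except for CD3D in K422, which lay between 61.6 and 87.3 TPM. In bulk RNA, a lower level in all cells and a loss of the transcript from a share of the cells cannot be told apart.

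As background, the proteasome degrades proteins that carry ubiquitin chains. Its core is a barrel of alpha and beta rings, of which the beta subunits PSMB5, PSMB6 and PSMB7 hold the active sites that cut peptides. A regulatory cap sits on the barrel, where the non-ATPase subunits bind and trim ubiquitin and the ATPases unfold the substrate and feed it into the core. Activators such as the PSME1 and PSME2 complex can bind in place of the cap, and dedicated chaperones assemble the core and the cap without staying in the finished particle. B cells that make large amounts of protein depend strongly on this machinery, and inhibitors of PSMB5 are used against several B cell malignancies.

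To see how PI3Kβ/δ inhibition affected these genes, AZD8186 was compared with DMSO over both lines and all time points of a subtype. In ABC DLBCL lines, 44 members passed the filter on low counts, of which 11 decreased, 1 increased and 32 did not pass the test. These are 25% lower and 2.27% higher, beside 13.8% lower and 15.3% higher among all 11419 genes tested (edgeR quasi-likelihood test, Benjamini-Hochberg adjusted p below 0.05). The ABC count depended on single pairs, with 6 decreased members without OCI-Ly10 or TMD8 at 18 h, 7 without OCI-Ly10 at 24 h and 17 without TMD8 at 6 h. In GCB DLBCL lines, 29 of 44 members decreased, 4 increased and 11 did not pass, which is 65.9% lower and 9.09% higher, beside 23.5% lower and 25.9% higher among all 10965 genes tested. The changes were small. The median log2 fold change of the members was -0.11 in ABC and -0.16 in GCB lines, whereas the median over all genes was 0.01 and 0.02, respectively. PSMA8 and PSMB11, both known as subunits of tissue-restricted proteasomes, were too low to pass the filter of these 2 fits.

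All 11 members that decreased in ABC lines also decreased in GCB lines, where they make up 11 of 29 decreased members. They comprise the alpha subunit PSMA6, the ATPase PSMC1, the non-ATPase subunits PSMD1, PSMD3, PSMD7, PSMD11, PSMD12 and PSMD14, the core chaperones PSMG1 and PSMG3, and the nuclear activator PSME3. PSME1 was the 1 member that increased in both subtypes. A further 18 members decreased in GCB lines without passing in ABC lines, and PSMB10, PSMD9 and PSMG2 increased in GCB lines alone at this threshold. The 11 genes that passed in neither subtype were PSMA2, PSMB1, PSMB3, PSMB4, PSMB6, PSMB7, PSMC6, PSMD4, PSMD8, PSMD10 and PSME2. Across the 44 members, the log2 fold changes in ABC and GCB lines correlated with a Pearson r of 0.76 and a Spearman rho of 0.78, compared with 0.46 and 0.51 across 10203 genes; members are measured in the same libraries and are not independent points.

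**Figure D1:**
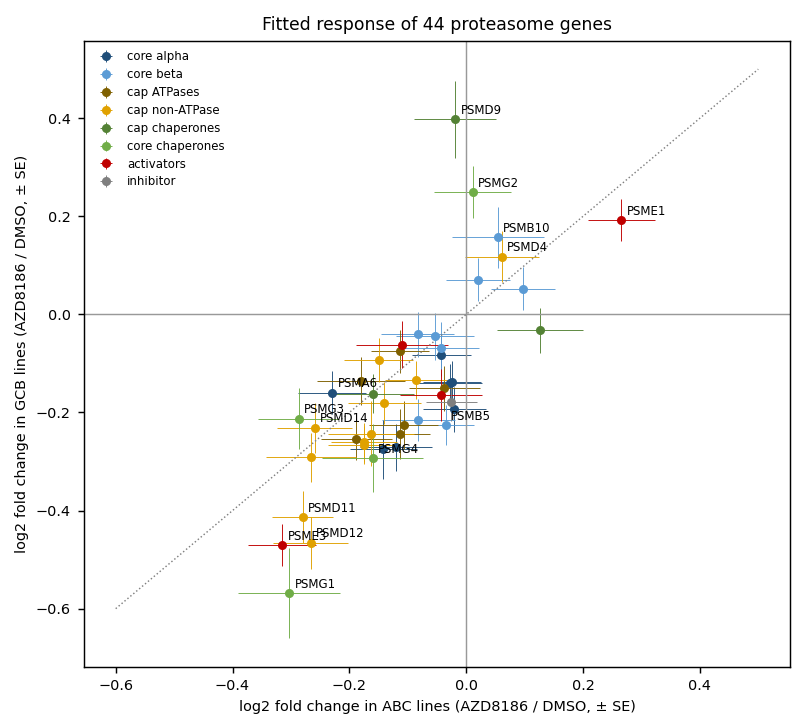
Fitted log2 fold change (AZD8186 over DMSO) of 44 proteasome genes in ABC lines (x axis) against GCB lines (y axis), with bars of 1 standard error and colours for the class. Most genes lie below 0 on both axes, PSME1 lies above 0 on both, and PSMD9 and PSMG2 lie near 0 in ABC lines and at 0.40 and 0.25 in GCB lines.

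The classes differed in how many members moved. Among the 17 cap subunits, 7 decreased in ABC lines and 14 in GCB lines, and none increased, with a median log2 fold change of -0.16 and -0.23. These are 41.2% and 82.4%, beside 13.8% and 23.5% of all genes. Of the 15 core subunits tested, 1 decreased in ABC lines (6.67%, below the 13.8% of all genes), with a class median of -0.04. In GCB lines, 8 core subunits decreased (53.3%) and 1 increased, with a median of -0.14. In GCB lines, 6 of 7 alpha genes and 2 of 8 beta genes decreased, the latter being 25% beside 23.5% of all genes. Their medians were -0.16 and -0.04 on the log2 scale. No test was made between classes, and these counts describe the members.

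**Figure D2:**
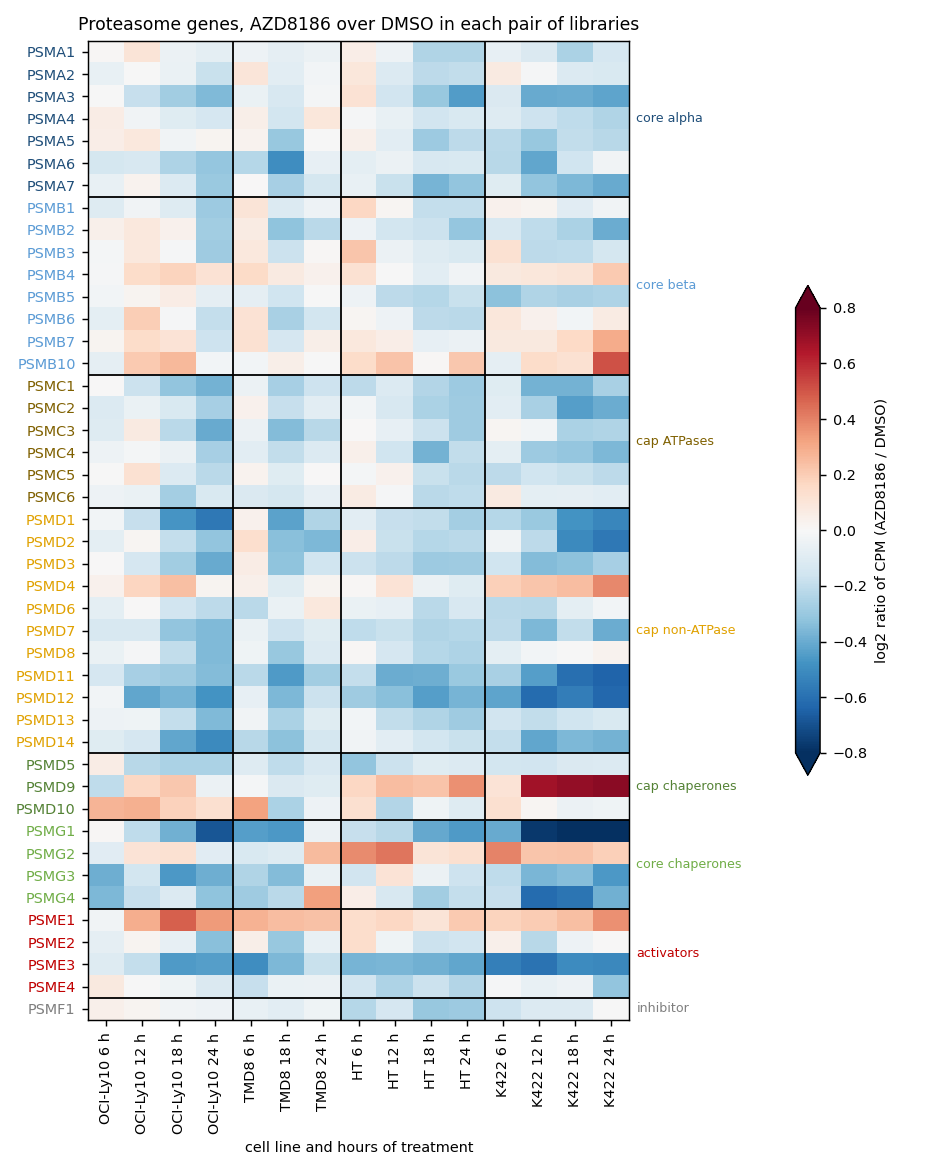
Log2 ratio of CPM (AZD8186 over DMSO, colour) for each of the 44 tested proteasome genes (rows, grouped by class) in each of the 15 pairs of libraries (columns, by cell line and hours). PSMD11, PSMD12, PSMG1 and PSME3 are blue in nearly all pairs, PSME1 is red in 14 of 15.

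Among cap subunits, PSMD11 had the smallest p in ABC lines and PSMD12 in GCB lines. PSMD11 (chr17:32444261-32483318, plus strand) and PSMD12 (chr17:67337916-67366627, minus strand) encode structural subunits of the cap. In OCI-Ly10, PSMD12 stood at 90.5, 92.6, 85.5 and 90.3 CPM (counts scaled to library size by TMM) under DMSO at 6, 12, 18 and 24 h and at 89.2, 69.5, 66.0 and 64.9 CPM under AZD8186. In TMD8 it was 93.8, 92.1 and 92.6 CPM under DMSO at 6, 18 and 24 h and 89.5, 71.9 and 82.1 CPM under AZD8186. The treated libraries were lower in each of these 7 pairs, and only the 6 h pairs were nearly level. In HT, the values were 85.5, 82.6, 84.0 and 80.2 CPM under DMSO against 70.3, 65.4, 62.0 and 62.0 CPM under AZD8186. K422 had 78.1, 87.5, 88.6 and 90.1 CPM under DMSO and 58.2, 57.1, 60.3 and 58.3 CPM under AZD8186. Treated and control libraries did not overlap in TMD8, HT or K422. PSMD12 thus fell by 0.27 ± 0.06 (SE) on the log2 scale in ABC lines (edgeR adjusted p = 0.00737) and by 0.47 ± 0.05 in GCB lines (edgeR adjusted p = 7.76e-06), a decrease of 27.6% in the latter.

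PSMD11 followed the same course. Its control levels were 131 to 146 CPM in OCI-Ly10, 179 to 189 CPM in TMD8, 148 to 165 CPM in HT and 152 to 172 CPM in K422. Under AZD8186, it was 133, 109, 109 and 111 CPM in OCI-Ly10, 159, 131 and 156 CPM in TMD8, 141, 126, 124 and 121 CPM in HT, and 127, 120, 113 and 107 CPM in K422. All 15 pairs were lower under AZD8186, the groups overlapped within OCI-Ly10 alone, and in K422 the log2 ratio went from -0.26 at 6 h to -0.64 at 24 h. The fitted decrease was -0.28 ± 0.05 (SE, edgeR adjusted p = 0.00175) in ABC lines and -0.41 ± 0.05 (edgeR adjusted p = 2.14e-05) in GCB lines.

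The remaining cap subunits moved less in GCB lines, while in ABC lines PSMD1 and PSMD14 fell about as far as PSMD12. PSMD14, which removes ubiquitin chains from substrates, decreased by -0.26 ± 0.06 in ABC and -0.23 ± 0.05 in GCB lines and was lower in all 15 pairs. Its lowest, median and highest levels were 94.2, 118 and 199 CPM under DMSO and 66.1, 110 and 171 CPM under AZD8186 in ABC lines. In GCB lines they were 158, 190 and 212 CPM under DMSO and 122, 166 and 198 CPM under AZD8186, so that the groups overlapped across lines. PSMD1, a scaffold that docks ubiquitin receptors, decreased by -0.27 ± 0.08 and -0.29 ± 0.05, and the lid subunits PSMD3 and PSMD7 by between -0.18 and -0.27 in either subtype. In ABC lines, the call of PSMD3 was lost with the pair as a block (edgeR adjusted p = 0.0508) and without 5 of 7 single pairs, that of PSMD7 without 4 pairs and that of PSMD1 without 3 pairs, OCI-Ly10 at 18 and 24 h and TMD8 at 18 h among them each time. Of the ATPases, PSMC1 was lower in 6 of 7 ABC pairs and 8 of 8 GCB pairs. It ranged from 164 to 192 CPM (median 175) under DMSO and from 133 to 193 CPM (median 150) under AZD8186 in ABC lines, and from 164 to 215 CPM (median 182) and 138 to 182 CPM (median 156) in GCB lines. The fitted change of PSMC1 was -0.19 ± 0.06 (edgeR adjusted p = 0.032) in ABC and -0.25 ± 0.04 (edgeR adjusted p = 0.000194) in GCB lines. The ABC call of PSMC1 was lost without OCI-Ly10 at 12, 18 or 24 h (edgeR adjusted p = 0.0652, 0.12 and 0.0982) or TMD8 at 18 h (edgeR adjusted p = 0.0971). PSMC1 shares its name with 13 annotated pseudogenes, with which its reads could be shared, and its exons overlap those of NRDE2. PSMC6 and PSMD8 did not pass in either subtype. The exception in sign among the cap subunits was the ubiquitin receptor PSMD4, at 0.06 ± 0.06 in ABC lines and 0.12 ± 0.05 in GCB lines, neither of which passed.

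Core subunits showed a graded picture. PSMA6 decreased in both subtypes, by -0.23 ± 0.06 in ABC (edgeR adjusted p = 0.00978) and -0.16 ± 0.04 in GCB lines (edgeR adjusted p = 0.00809), and was lower in all 15 pairs. Its DMSO levels were 144 to 218 CPM in ABC and 238 to 440 CPM in GCB lines, with medians of 181 and 323 CPM; under AZD8186 they were 128 to 198 CPM and 221 to 397 CPM, with medians of 154 and 283 CPM. In GCB lines, PSMA7 had the smallest p among alpha genes and decreased by -0.27 ± 0.05 (edgeR adjusted p = 0.00034), from 299 to 405 CPM (median 367) under DMSO to 226 to 369 CPM (median 296) under AZD8186. In ABC lines its change was -0.12 ± 0.06, with 186 to 330 CPM under DMSO (median 234) and 151 to 306 CPM under AZD8186 (median 224), and did not pass.

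The 3 constitutive catalytic subunits did not move together. PSMB5 (chr14:23016543-23035230, minus strand), the chymotrypsin-like subunit and the main target of clinical proteasome inhibitors, had 166.7, 149.7, 151.5 and 143.9 CPM under DMSO in OCI-Ly10 and 163.9, 152.3, 157.7 and 137 CPM under AZD8186. TMD8 had 162, 167 and 142 CPM under DMSO and 154, 150 and 141 CPM under AZD8186. Treated and control levels overlapped in both ABC lines. In HT, PSMB5 was 103, 110, 102 and 95.0 CPM under DMSO and 99.9, 94.8, 86.7 and 83.8 CPM under AZD8186. In K422, it was 116, 124, 109 and 108 CPM under DMSO and 92.3, 105, 90.6 and 91.2 CPM under AZD8186, without overlap. The fitted change was -0.03 ± 0.05 in ABC and -0.23 ± 0.04 in GCB lines (edgeR adjusted p = 0.000329). PSMB6, the caspase-like subunit, changed by -0.05 ± 0.07 and -0.04 ± 0.05, and its median moved from 130 to 134 CPM in ABC (116 to 161 CPM under DMSO, 103 to 152 CPM under AZD8186) and from 168 to 157 CPM in GCB lines (130 to 206 CPM and 135 to 202 CPM). PSMB7, the trypsin-like subunit, changed by 0.02 ± 0.06 and 0.07 ± 0.04, and ran from 158 to 295 CPM under DMSO and 163 to 299 CPM under AZD8186 in ABC lines and from 154 to 245 CPM and 176 to 259 CPM in GCB lines. Neither PSMB6 nor PSMB7 passed in a subtype.

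PSMB4, a structural beta subunit, had the smallest p of its class in ABC lines but did not pass there. It changed by 0.10 ± 0.05, with a median of 245 CPM under DMSO (209 to 312 CPM) and 265 CPM under AZD8186 (214 to 309 CPM). In GCB lines the change was 0.05 ± 0.04 and the range 192 to 271 CPM under DMSO and 205 to 283 CPM under AZD8186. PSMB10, the inducible counterpart of PSMB7 in immunoproteasomes, increased by 0.16 ± 0.06 in GCB lines (edgeR adjusted p = 0.0468) and was higher in 7 of 8 pairs. Its GCB levels were 50.3 to 110 CPM under DMSO (median 73.6) and 53.7 to 125 CPM under AZD8186 (median 81.2), and the call was lost when K422 at 24 h, where the log2 ratio was 0.51, was left out (0.10, edgeR adjusted p = 0.165) and under 8 other alternatives. In ABC lines PSMB10 ranged from 132 to 231 CPM under DMSO and 134 to 239 CPM under AZD8186.

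Regulators outside the core and the cap included members that moved in either direction. PSME3 (chr17:42824385-42843758, plus strand), which forms a nuclear activator ring that works without ubiquitin, was 286, 297, 340 and 308 CPM under DMSO in OCI-Ly10 at 6, 12, 18 and 24 h and 266, 260, 248 and 227 CPM under AZD8186. In TMD8 it was 423, 421 and 388 CPM under DMSO against 300, 328 and 343 CPM under AZD8186. HT had 340, 296, 330 and 324 CPM under DMSO and 263, 229, 253 and 243 CPM under AZD8186. PSME3 was thus lower in every pair of these lines, and the 2 groups of libraries did not overlap within any of them. The same held in K422, with 309, 311, 335 and 314 CPM under DMSO and 212, 207, 236 and 220 CPM under AZD8186. The fitted decrease was -0.32 ± 0.06 (SE, edgeR adjusted p = 0.00173) in ABC lines and -0.47 ± 0.04 (edgeR adjusted p = 1.44e-06) in GCB lines. The exons of PSME3 overlap those of BECN1, whose fitted changes were 0.15 and 0.22 on the log2 scale.

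PSME1 (chr14:24136158-24138967, plus strand), a subunit of the interferon-inducible activator, moved in the opposite direction to PSME3. Its levels in OCI-Ly10 were 280, 240, 215 and 220 CPM under DMSO and 274, 294, 299 and 278 CPM under AZD8186. In TMD8 they were 215, 198 and 191 CPM under DMSO and 261, 236 and 225 CPM under AZD8186. PSME1 was higher in 6 of 7 ABC pairs, with the 6 h pair of OCI-Ly10 as the exception. HT had 132, 128, 120 and 107 CPM under DMSO and 146, 144, 128 and 124 CPM under AZD8186, while K422 had 392, 346, 296 and 308 CPM and 443, 397, 350 and 397 CPM. All 8 GCB pairs were higher. The fitted increase was 0.27 ± 0.06 in ABC lines (edgeR adjusted p = 0.00402) and 0.19 ± 0.04 in GCB lines (edgeR adjusted p = 0.00169); on the TPM scale, where the median of all genes in ABC lines was -0.15, PSME1 stood at 0.07 and was not called in ABC lines (limma adjusted p = 0.354). Its partner PSME2 changed by -0.11 ± 0.08 and -0.06 ± 0.05 and did not pass. PSME4, an activator of the nucleus, changed by -0.04 ± 0.07 in ABC lines (62.2 to 114 CPM under DMSO and 54.8 to 112 CPM under AZD8186) and decreased by -0.16 ± 0.05 in GCB lines (87.4 to 165 CPM and 83.9 to 142 CPM), and PSMF1, an inhibitor of the core, changed by -0.03 ± 0.04 (202 to 226 CPM and 198 to 229 CPM) and decreased by -0.18 ± 0.04 (181 to 233 CPM and 175 to 199 CPM). In GCB lines, PSME4 and PSMF1 were lower in all 8 pairs.

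Assembly chaperones moved in either direction in GCB lines. PSMG1 (chr21:39174769-39183851, minus strand), which pairs with PSMG2 to guide the assembly of the alpha ring, was 49.0, 46.8, 60.0 and 57.9 CPM under DMSO in OCI-Ly10 and 49.4, 40.6, 45.9 and 36.0 CPM under AZD8186. In TMD8 it was 54.97, 69.4 and 60.0 CPM under DMSO and 40.4, 50.4 and 58.1 CPM under AZD8186. The ABC decrease therefore varied between pairs, from a log2 ratio of 0.01 to -0.68. In HT, PSMG1 had 73.6, 68.5, 74.4 and 75.7 CPM under DMSO and 64.8, 58.6, 56.0 and 55.3 CPM under AZD8186. K422 had 86.8, 102, 96.3 and 95.0 CPM under DMSO and 65.7, 59.7, 48.7 and 45.9 CPM under AZD8186, where the fitted change of -0.80 ± 0.11 (edgeR adjusted p = 1.14e-05) was the lowest of any tested member in the 4 lines. The fit gave -0.30 ± 0.09 in ABC lines (edgeR adjusted p = 0.0183) and -0.57 ± 0.09 in GCB lines (edgeR adjusted p = 0.00015). The ABC call of PSMG1 was lost without OCI-Ly10 at 18 h (edgeR adjusted p = 0.0696) or TMD8 at 18 h (edgeR adjusted p = 0.0663).

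PSMG2 (chr18:12658043-12725740, plus strand) went the other way in GCB lines. It was 82.0, 80.5, 86.2 and 89.3 CPM under DMSO in HT and 107, 108, 92.4 and 97.4 CPM under AZD8186, and 61.0, 69.1, 60.0 and 57.5 CPM in K422 against 80.3, 80.6, 70.4 and 65.7 CPM. In the ABC lines, DMSO and AZD8186 levels were 71.1 to 92.6 CPM and 66.7 to 86.9 CPM in OCI-Ly10 and 67.15 to 90.2 CPM and 76.4 to 83.9 CPM in TMD8. PSMG2 was higher in all 8 GCB pairs and in 3 of 7 ABC pairs. The 2 subunits of the same heterodimer thus differed in sign in GCB lines, with 0.25 ± 0.05 for PSMG2 (edgeR adjusted p = 0.00128) against the decrease of PSMG1. The exons of PSMG2 overlap those of CEP76, which changed by 0.25 in GCB lines. PSMG3 and PSMG4 form the other core chaperone pair. PSMG3 decreased by -0.29 ± 0.07 in ABC lines (edgeR adjusted p = 0.00766), where it had 13.1 to 26.7 CPM under DMSO (median 17.1) and 11.8 to 23.2 CPM under AZD8186 (median 12.6), and by -0.21 ± 0.06 in GCB lines, where it had 20.02 to 26.0 CPM and 17.7 to 22.6 CPM. PSMG4 changed by -0.16 ± 0.09 in ABC lines, which did not pass, and decreased by -0.29 ± 0.07 in GCB lines.

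Among the cap chaperones, PSMD9 (chr12:121888731-121918297, plus strand) rose in GCB lines. In HT it was 80.8, 82.1, 87.1 and 81.9 CPM under DMSO and 90.5, 97.4, 102 and 106 CPM under AZD8186. K422 had 48.9, 52.6, 58.2 and 51.2 CPM under DMSO and 52.8, 83.8, 95.0 and 84.5 CPM under AZD8186, so that its increase was small at 6 h and large from 12 h onwards. In OCI-Ly10, PSMD9 had 27.4 to 35.6 CPM under DMSO and 27.7 to 34.6 CPM under AZD8186, and in TMD8 53.2 to 61.7 CPM and 50.7 to 56.9 CPM. The fitted change was 0.40 ± 0.08 in GCB lines (edgeR adjusted p = 0.000739) and -0.02 ± 0.07 in ABC lines. PSMD9 shares exon sequence with WDR66, which was at a mean of 3.23 TPM beside 35.2 TPM for PSMD9 and changed by 1.05 in GCB and 0.47 in ABC lines; the part of WDR66 reads in the PSMD9 values was not tested. PSMD5 decreased by -0.16 ± 0.04 in GCB lines (39.7 to 49.1 CPM under DMSO and 33.6 to 45.6 CPM under AZD8186) and had the smallest p of its class in ABC lines, where -0.16 ± 0.07 did not pass; there it was 3.47, 3.53, 4.44 and 4.40 CPM under DMSO and 3.62, 3.015, 3.72 and 3.67 CPM under AZD8186 in OCI-Ly10, and 44.1 to 47.4 CPM and 40.5 to 41.1 CPM in TMD8. PSMD10 changed by 0.13 ± 0.07 in ABC and -0.03 ± 0.05 in GCB lines, neither of which passed.

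**Figure D3:**
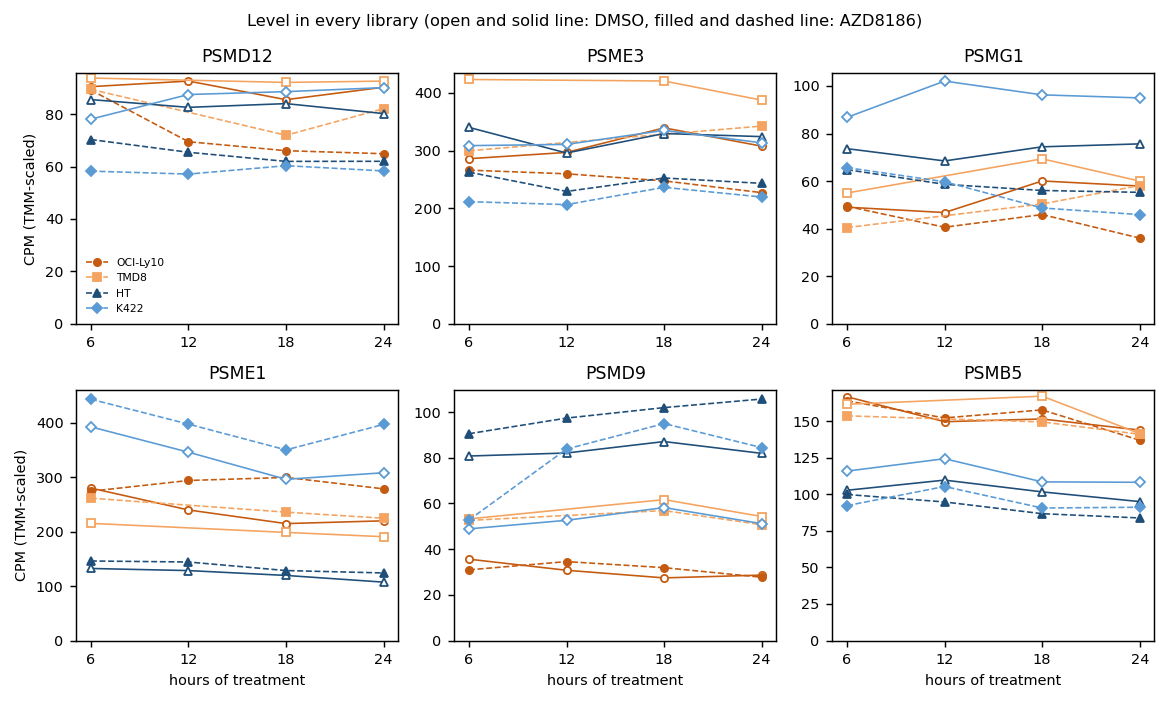
Level in CPM (y axis, from 0) of 6 proteasome genes by hours of treatment (x axis) in every library, with open markers and solid lines for DMSO, filled markers and dashed lines for AZD8186, and 1 colour per cell line. PSMD12, PSME3 and PSMG1 lie lower under AZD8186 in most pairs, PSME1 lies higher in 14 of 15 pairs, and PSMD9 separates in HT and K422 but not in OCI-Ly10 and TMD8.

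Sequences before the start sites are shown for PSMD12 and PSMD1, which decreased in both subtypes, and for PSME1 and PSMD9, which increased, to place the directions beside promoter letters. They come from RefSeq (GRCh38.p14), which held windows for 40 of the 46 members, and each is the longest stretch of the 250 bases before the start site in which no exon is annotated, read 5′ to 3′ on the strand of the gene. Capitals mark matches to 5 motifs searched on both strands. These were the CCAAT box, the ETS-type core with the letters CCGGAAG, the E-box with the letters CACGTG, the antioxidant-response type TGACNNNGC to which NFE2L1 and NFE2L2 bind, and the palindromic NRF1 motif. In PSMD9, the CCGGAAG match and the TGACNNNGC match nearest the start lie next to each other, and PSMD1 holds none of the motifs in this stretch. The stretches are chr17:67366628-67366827 (minus strand) for PSMD12, chr2:231056617-231056863 (plus strand) for PSMD1, chr14:24135944-24136157 (plus strand) for PSME1 and chr12:121888540-121888730 (plus strand) for PSMD9.
PSMD12: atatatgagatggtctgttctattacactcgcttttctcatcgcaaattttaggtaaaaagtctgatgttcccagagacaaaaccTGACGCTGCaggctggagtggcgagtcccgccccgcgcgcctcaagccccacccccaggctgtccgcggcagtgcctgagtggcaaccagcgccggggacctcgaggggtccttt
PSMD1: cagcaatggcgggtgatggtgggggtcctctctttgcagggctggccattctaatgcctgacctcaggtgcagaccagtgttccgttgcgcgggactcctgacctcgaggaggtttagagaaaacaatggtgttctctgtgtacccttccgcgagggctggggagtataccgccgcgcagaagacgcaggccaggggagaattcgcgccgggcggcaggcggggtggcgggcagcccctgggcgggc
PSME1: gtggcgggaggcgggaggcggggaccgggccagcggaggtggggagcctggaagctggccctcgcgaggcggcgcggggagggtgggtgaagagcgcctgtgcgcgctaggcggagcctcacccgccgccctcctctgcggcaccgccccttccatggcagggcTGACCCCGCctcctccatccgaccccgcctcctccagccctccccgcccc
PSMD9: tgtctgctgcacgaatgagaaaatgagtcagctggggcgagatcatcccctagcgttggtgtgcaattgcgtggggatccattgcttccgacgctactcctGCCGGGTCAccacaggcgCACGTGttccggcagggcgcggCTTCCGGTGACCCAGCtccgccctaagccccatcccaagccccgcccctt

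Across the 250 bases before the start, TGACNNNGC was present in 12 of 40 members (30%) and in 13.2% of all 27305 genes of the table. That table holds more genes than the 21112 in the files and was not limited to expressed genes, so that it is not a matched background. For 34 of the 40 members, the bases after the start were found in a GENCODE 29 transcript of the gene. CCGGAAG was found in 11 of 40 members (27.5%), compared with 10.2% of all genes. CCAAT was in 18 of 40 (45%) against 37%, CACGTG in 3 of 40 (7.5%) against 7.73%, and the NRF1 motif in 4 of 40 (10%) against 6.2%. Members with a window that decreased in GCB lines held TGACNNNGC in 7 of 27 cases (25.9%), while 3 of the 4 that increased held it. CCAAT was in 13 of 27 members that decreased and 0 of 4 that increased. Of the 7 members with a window that were tested and not called in GCB lines, 4 (57.1%) held CCAAT and 2 (28.6%) held TGACNNNGC. A match describes letters and not binding, and several letters of a motif are free.

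Within single lines, the numbers of calls differed. In a fit of all 30 libraries with a treatment term for each line, 45 members were tested in each line, since PSMA8 passed the filter through TMD8. In OCI-Ly10, 11 members decreased and 1 increased (beside 11.5% lower and 11.3% higher of 12910 genes). In TMD8, 4 decreased and 1 increased (8.89% and 2.22%, beside 7.63% and 9.26%), which is near the share of all genes for decreases, and a fit of TMD8 alone called 0 lower and 0 higher. In HT, 13 decreased and 1 increased (beside 7.44% and 9.17%), and in K422, 23 decreased and 4 increased (beside 20.2% and 22.7%). PSMD11 and PSME3 decreased in all 4 lines. PSME1 was the increased member in OCI-Ly10 and TMD8 and increased in K422, while in HT, where PSMG2 was the increased member, it stood at 0.16 ± 0.07 and did not pass. The count in HT fell to between 4 and 5 decreased members when the 12 h, 18 h or 24 h pair of HT was left out, and that in OCI-Ly10 fell to 7, 2 and 3 without its 12 h, 18 h or 24 h pair. TMD8 fell to 2 and 1 without its 6 h or 18 h pair.

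Calls in single lines fell on cap and core as follows. Among the 17 cap subunits, 7 decreased in OCI-Ly10, 2 in TMD8, 6 in HT and 12 in K422, and 1, PSMD4, increased in K422. Among the 16 core subunits tested, 1 decreased in OCI-Ly10, 1 in TMD8, 2 in HT and 7 in K422, and none increased. The 16 include PSMA8, which passed the filter through TMD8 and was not called in any line. In the order OCI-Ly10, TMD8, HT and K422, 41.2%, 11.8%, 35.3% and 70.6% of the cap subunits were lower. For core subunits the shares were 6.25%, 6.25%, 12.5% and 43.75%, beside 11.5%, 7.63%, 7.44% and 20.2% of all genes. The core shares in OCI-Ly10 and TMD8 thus lay below those of all genes. PSMA6 was the decreased core gene in both ABC lines. In HT the decreased core genes were PSMA7 and PSMB5, which also decreased in K422 together with PSMA3, PSMA4, PSMA5, PSMA6 and PSMB2.

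In each line, the median ratio of the members was lower at 24 h than at 6 h, without a steady fall in the ABC lines. At 6 h, the median log2 ratio over the 44 members was -0.04 in OCI-Ly10, -0.03 in TMD8, -0.003 in HT and -0.10 in K422, and between 22 and 31 of the 44 members were below 0. At 24 h the medians were -0.27 in OCI-Ly10, -0.06 in TMD8, -0.21 in HT and -0.22 in K422, with between 34 and 40 members below 0. The lowest median of TMD8 was that at 18 h, at -0.20 with 41 members below 0. In OCI-Ly10, the median at 12 h was -0.003, above that at 6 h, with 23 of 44 members below 0. All 15 medians were below 0, whereas the medians over all genes lay between 0 and 0.03. The cap non-ATPase subunits had the lowest class median among core and cap classes in 11 of 15 pairs and reached -0.38 in K422 at 24 h, while the beta genes stood at 0.02 in that pair.

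**Figure D4:**
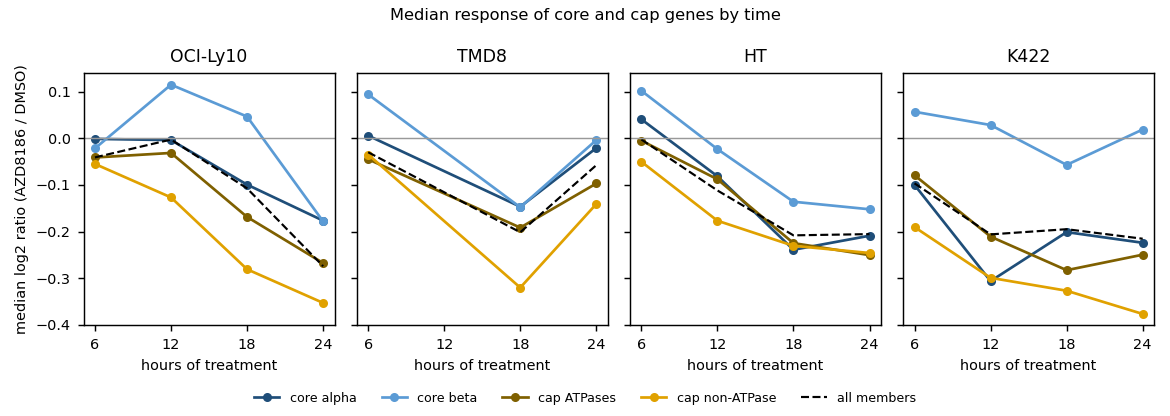
Median log2 ratio (AZD8186 over DMSO, y axis) of the core alpha, core beta, cap ATPase and cap non-ATPase genes and of all 44 members (dashed) against hours of treatment (x axis) in each cell line; each point rests on 1 pair of libraries. The dashed line lies between -0.10 and -0.003 at 6 h and between -0.27 and -0.06 at 24 h, without a steady fall in OCI-Ly10 and TMD8. The cap non-ATPase line lies lowest in most pairs.

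The change with time was tested as the difference between the response at 18 to 24 h and that at 6 to 12 h. No member passed in ABC lines (0 of 45, beside 0.123% of all genes) or in GCB lines (0 of 44, beside 0% of all genes) with edgeR, and limma-voom called 0 in both. At an unadjusted p under 0.05, edgeR gave 6 of 45 members in ABC and 17 of 44 in GCB lines, and limma-voom 8 and 17. Over all genes, edgeR gave 1767 of 12203 in ABC lines, a share close to that of the members, and 1724 of 11366 in GCB lines. The median difference over the 44 members was -0.12 in both subtypes, with 36 and 38 of 44 members below 0, and the standard error of a single gene was 0.10 in ABC and 0.07 in GCB lines in the median.

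Differences of the response between lines and subtypes were few. Between TMD8 and OCI-Ly10, no member differed (0 of 45, beside 0.899% of all genes, with edgeR; limma-voom also called 0 and no member had an unadjusted p under 0.05). Between K422 and HT, 2 of 45 members differed (4.44%, beside 10.6% of all genes). PSMD4 responded more positively in K422, by 0.27 ± 0.08 on the log2 scale (edgeR adjusted p = 0.0369), with 0.26 ± 0.06 in K422 and -0.01 ± 0.06 in HT. Its levels in K422 were 149, 156, 156 and 143 CPM under DMSO and 170, 181, 185 and 187 CPM under AZD8186, without overlap, whereas HT had 153 to 164 CPM and 150 to 165 CPM. PSMG1 responded more negatively in K422, by -0.48 ± 0.15 (edgeR adjusted p = 0.0482). Both calls were lost without the 6, 18 or 24 h pair of HT or the 12, 18 or 24 h pair of K422, and that of PSMG1 also without other pairs and with DESeq2 size factors.

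Between GCB and ABC lines, the responses of 3 of 45 members differed (6.67%, beside 15.8% of all genes). PSMD9 had the largest difference, 0.43 ± 0.09 (edgeR adjusted p = 0.00366), and stayed between 0.39 and 0.50 with each pair left out. PSMG2 differed by 0.25 ± 0.08 (edgeR adjusted p = 0.0331) and PSMB5 by -0.18 ± 0.05 (edgeR adjusted p = 0.0284), and both of these calls were lost without several single pairs, HT at 12 h among them. For the other 42 members, including those that passed in GCB lines alone apart from PSMB5, PSMD9 and PSMG2, the difference between subtypes did not pass, and a difference was not shown.

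The members together took a smaller share of the counts under AZD8186 in 15 of 15 pairs. In K422 at 24 h, the share was 0.894% under DMSO and 0.746% under AZD8186, and in OCI-Ly10 at 24 h it was 0.727% and 0.574%. At the same time, the share of ribosomal protein genes was higher under AZD8186 in 14 of 15 pairs, from 17.5% to 24.3% in OCI-Ly10 at 24 h and from 11.5% to 16.4% in K422 at 24 h. When ribosomal RNA, MTRNR2L and ribosomal protein genes were left out of the scaling, the calls remained 11 lower and 1 higher in ABC lines and 29 lower and 4 higher in GCB lines. On the TPM scale, which divides by a total that includes the ribosomal protein genes, 35 members were lower in ABC lines and 32 in GCB lines, where the medians of all genes were -0.15 and -0.03 and the members lay 0.14 and 0.19 below them.

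Without the inhibitor, the levels of the members differed between lines. They are given in TPM, which accounts for transcript length. Among the 14 constitutive core genes, the highest mean was 9.04 times the lowest in OCI-Ly10, 17.8 times in TMD8, 9.78 times in HT and 12.0 times in K422, with PSMB2 the lowest in TMD8, HT and K422 and PSMA5 in OCI-Ly10. Over 44 members, the line with the highest mean was a median of 1.71-fold above the line with the lowest, and 17 members exceeded 2-fold. Activators ran from PSME4 at 11.7 to 29.7 TPM to PSME2 at 394 to 895 TPM across the line means.

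**Figure D5:**
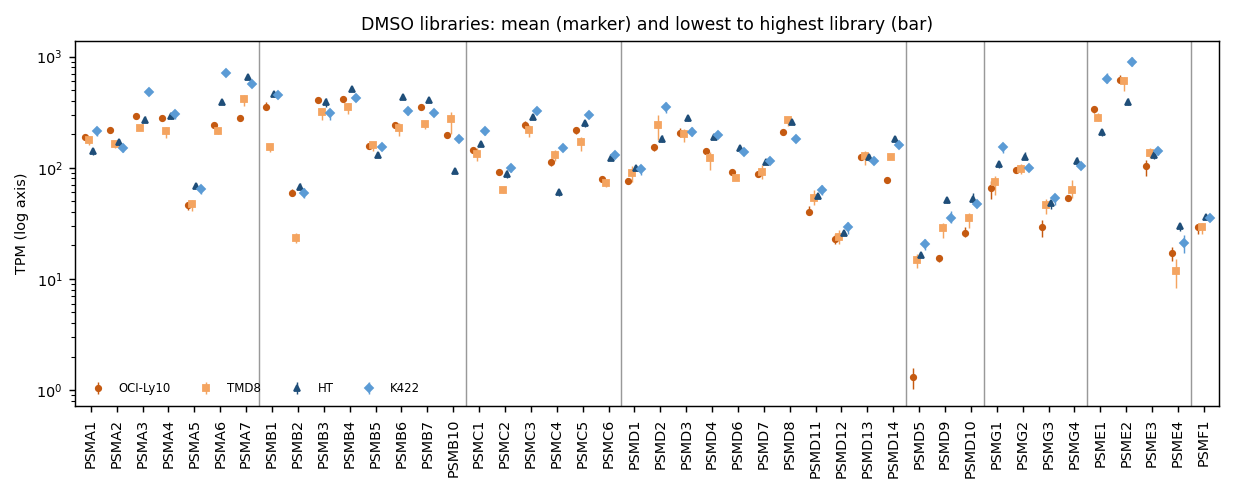
Mean TPM (log axis) of 44 proteasome genes in the DMSO libraries of each cell line, with bars from the lowest to the highest library (n = 4, or 3 in TMD8). PSMD5 in OCI-Ly10 lies at 1.32 TPM, below all other values, and PSMB1 and PSMB2 are lowest in TMD8.

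The widest difference was that of PSMD5, a chaperone of the cap base. It stood at 1.32 ± 0.27 TPM (SD, n = 4) in OCI-Ly10, compared with 14.9 ± 2.22 TPM (n = 3) in TMD8, 16.3 ± 0.46 TPM (n = 4) in HT and 20.4 ± 2.39 TPM (n = 4) in K422. OCI-Ly10 was therefore far below all other lines, while TMD8 and HT overlapped. The difference between TMD8 and OCI-Ly10 under DMSO was 3.48 ± 0.10 on the log2 scale (edgeR adjusted p = 2.92e-15). OCI-Ly10 was also the lowest line for the other cap chaperones, with PSMD9 3.30-fold lower than in HT and PSMD10 overlapping with TMD8.

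Several core genes were set apart in TMD8 and K422. PSMB1, a structural beta subunit, was 154 ± 14.02 TPM in TMD8, compared with 354 ± 23.6 in OCI-Ly10, 461 ± 14.5 in HT and 455 ± 8.46 in K422, and the last 2 lines overlapped. PSMB2 was 23.4 ± 2.25 TPM in TMD8 against 59.2 to 66.7 TPM in the means of the other lines, which overlapped with their neighbours. Between TMD8 and OCI-Ly10, PSMB1 was lower by -1.19 ± 0.08 and PSMB2 by -1.35 ± 0.07 on the log2 scale (edgeR adjusted p = 9.13e-10 and 1.58e-11). PSMA6 was highest in K422 at 712 ± 26.6 TPM, followed by HT at 387 ± 13.2, OCI-Ly10 at 244 ± 10.9 and TMD8 at 216 ± 13.6 TPM, of which the last 2 overlapped. PSMA8, a subunit known from testis, was at 1.14 ± 0.54 TPM in TMD8 and at most 0.23 TPM in any DMSO library of another line, and PSMB11, known from the thymus, was at 0 in all DMSO libraries.

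Both subunits of the inducible activator were highest in K422 and lowest in HT. PSME1 was 628 ± 57.2 TPM in K422, 335 ± 17.4 in OCI-Ly10, 282 ± 25.8 in TMD8 and 209 ± 13.9 TPM in HT, with no overlap between neighbours in this order. PSME2 was 895 ± 67.7 TPM in K422 and 394 ± 28.2 TPM in HT, while OCI-Ly10 (622 ± 37.8) and TMD8 (602 ± 92.3) overlapped. PSMB10 was also lowest in HT but highest in TMD8, with HT at 92.6 ± 4.89 TPM, followed by K422 at 183 ± 6.78, OCI-Ly10 at 199 ± 9.78 and TMD8 at 275 ± 65.2 TPM, of which only HT was separate. The related immunosubunit PSMB8 was at 0.02 TPM in the mean of OCI-Ly10, while it reached 112 to 440 TPM in the means of the other lines. Among the ATPases, PSMC4 was 60.5 ± 3.16 TPM in HT and 112 to 152 TPM in the means of the other lines.

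By test, 14 of 45 members were lower and 18 higher in GCB than in ABC lines under DMSO (31.1% and 40%, beside 42.4% and 38.6% of all 12596 genes). On the TPM scale this split was 6 lower and 35 higher, where 3769 of all 12596 genes were lower and 7046 higher and the median of all genes was 0.25. Between TMD8 and OCI-Ly10, 14 were lower and 15 higher (beside 34.7% and 34.6%), and between K422 and HT, 20 were lower and 12 higher (beside 33.9% and 34.1%). These shares are near or below those of all genes, except that 44.4% of members were lower in K422 than in HT. PSMA8 is among the 45 members because it passed the filter through TMD8. Its place in the comparisons that involve TMD8 follows from that filter and is not a result. All 3 cap chaperones and 3 of 4 core chaperones were higher in GCB than in ABC lines, with PSMD5 at 1.71 ± 0.06, PSMD9 at 0.67 ± 0.06, PSMD10 at 0.36 ± 0.06, PSMG1 at 0.55 ± 0.06, PSMG4 at 0.53 ± 0.07 and PSMG3 at 0.26 ± 0.06. Within the ABC subtype, all 3 cap chaperones (by 0.46 to 3.48) and 2 of 4 core chaperones were also higher in TMD8 than in OCI-Ly10. The low levels in OCI-Ly10 thus enter the difference between subtypes.

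Genes that work with the proteasome were followed as lists, whose counts stand beside the shares of all genes given above for ABC (13.8% lower, 15.3% higher) and GCB lines (23.5% lower, 25.9% higher). Of 12 other parts and partners, 5 decreased and 1 increased in ABC lines and 6 decreased and 1 increased in GCB lines. UCHL5, a deubiquitinase of the cap, decreased by -0.39 ± 0.08 in ABC (edgeR adjusted p = 0.00385) and -0.41 ± 0.06 in GCB lines (edgeR adjusted p = 0.000108), and ADRM1, the ubiquitin receptor that holds it, by -0.23 ± 0.06 and -0.33 ± 0.05. Of 7 genes that control subunit transcription, 4 decreased and 1 increased in ABC lines and 2 decreased and 1 increased in GCB lines, the latter near or below the shares of all genes. NFE2L1, the factor that raises subunit genes when proteasome activity is short, decreased by -0.16 ± 0.06 in ABC and -0.12 ± 0.04 in GCB lines. In ABC lines, MAFK, a small Maf partner, had the smallest p (-0.47 ± 0.11), followed by the deglycosylase NGLY1, which increased by 0.20 ± 0.05. In GCB lines, these were the protease DDI2, which decreased by -0.45 ± 0.07, and MAFF, which increased by 0.42 ± 0.13. The log2 ratio of MAFF lay between 0.14 and 0.60 in HT but was -0.11 and -0.06 in K422 at 6 and 12 h. Its level was low, at 2.68 CPM in HT and 6.59 CPM in K422 under DMSO at 6 h.

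Among 10 genes of substrate delivery, 1 decreased in ABC and 6 in GCB lines, and none increased; the ABC count is below the share of all genes. The shuttle UBQLN4 decreased by -0.24 ± 0.06 in ABC lines. In GCB lines, RAD23B decreased by -0.19 ± 0.04 and the unfoldase VCP by -0.17 ± 0.04. Of 6 genes for ubiquitin and its activation, 3 increased in ABC lines, and 2 increased and 1 decreased in GCB lines. RPS27A, which encodes ubiquitin fused to a ribosomal protein, increased by 0.28 ± 0.07 in ABC lines, whereas in GCB lines the polyubiquitin gene UBB had the smallest p and increased by 0.30 ± 0.05. The immunosubunits PSMB8 and PSMB9 changed by 0.09 ± 0.04 and 0.06 ± 0.06 in GCB lines and did not pass. Neither was tested in the fit of the ABC lines, and both were near 0 in OCI-Ly10. In TMD8, their log2 ratios at 6, 18 and 24 h were 0.17, 0.57 and 0.52 for PSMB8 and 0.12, 0.51 and 0.50 for PSMB9.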

How the data were processed

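RNA was extracted with the NucleoSpin RNA Plus kit and sequenced on the Illumina platform. The authors aligned reads with HISAT2 and aggregated them per gene with RSEM on GRCh38.p12, with no tool versions or strand setting given in the sources used here. The deposited files hold RSEM expected counts, TPM and FPKM (not used) per gene. Expected counts were rounded and tested with edgeR 4.0.16 in R 4.3.3 (TMM, filterByExpr, glmQLFit and glmQLFTest), with line and time as terms within a subtype, or with pairs as a block in the fit of all 30 libraries; p-values were adjusted by Benjamini-Hochberg over all genes and called below 0.05. DMSO levels were tested over 15 libraries with time as a term. Log2 ratios of single pairs use a prior count of 2, which the CPM values do not, and both use the scaling of all 30 libraries. Alternatives used limma 3.58.1 and DESeq2 1.42.0. Fits were tested on simulated data.

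Members and lists were chosen with earlier results of these data known. Every member may be named. Levels in every library, or their lowest, median and highest, are given for the member of each class with the smallest p in each subtype and for PSMB5, PSMB6, PSMB7, PSMB10, PSMD14, PSME3, PSME4 and PSMF1; PSMG2 and PSMD4 follow from the tests of differences, and PSME1 was chosen after its values were seen. Of related lists, the 2 genes with the smallest p in each subtype are named, except for some that are not reported here, and NFE2L1 was added after its values were seen. In GENCODE 29, 12 members have pseudogenes named after them and the exons of 12 overlap another gene of the files, so that RSEM may have divided shared reads.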

Additional observations from a re-analysis of the deposited data

Results flagged for a closer look

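In 5 cases, tests of a difference between responses passed for a member. PSMD9 differed between GCB and ABC lines by 0.4271 on the log2 scale, PSMG2 by 0.2492 and PSMB5 by -0.1758, and between K422 and HT, PSMD4 differed by 0.2680 and PSMG1 by -0.4828 (all edgeR quasi-likelihood tests). A sample far from the others was found in 1 of 45 groups of pairs examined: the log2 ratio of PSMD5 in HT at 6 h was -0.3158, while the other 7 GCB pairs lay between -0.17 and -0.09. About 1 in 20 groups is marked in this way by chance.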

How the results depend on the processing

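Over all comparisons, 389 of 449 recomputed counts and medians of the members stayed within 1.5 times of the value given or within the spread between pairs. Of 1712 recomputed fold changes, which include those of members that were not called, 1505 kept their sign and call. In 105 a call was lost, in 79 a call was gained, and in 23 a member that was not called changed sign. No called member changed sign. DESeq2 size factors, limma-voom and the pair as replicate block gave 11 lower and 1 higher member in ABC and 29 lower and 4 higher in GCB lines. With the replicate block, the 11 in ABC lines included PSMC3 (edgeR adjusted p = 0.0465) in place of PSMD3 (0.0508). DESeq2 gave 13 lower in ABC lines, and without a filter or with at least 5 CPM in 7 libraries, 3 and 5 members were higher in GCB lines. On log2(TPM + 1) and log2(TPM + 0.1), 35 members were lower and 0 higher in ABC lines, with medians of -0.2927 and -0.3056, and under DMSO 6 were lower and 35 higher in GCB than ABC lines on log2(TPM + 1). With treatment as the sole term, 0 members were lower and 0 higher in ABC lines and 10 lower and 0 higher in GCB lines, since differences between lines then enter the spread. Without 6 h, 18 were lower in ABC lines. Leaving out each pair gave 6 to 17 lower members in ABC lines, the lowest without the 18 h pair of OCI-Ly10 or TMD8 and the highest without the 6 h pair of TMD8, and 7 without OCI-Ly10 at 24 h.

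In single lines, leaving out each pair gave 2 to 12 lower and 0 to 2 higher members in OCI-Ly10, 1 to 5 and 0 to 1 in TMD8, and 4 to 13 and 0 to 3 in HT. With line and time as terms and no replicate block, 2 were higher in OCI-Ly10, 2 lower in TMD8 and 8 lower in HT. Each line alone gave 2 higher in OCI-Ly10, 0 lower and 0 higher in TMD8, and 21 lower and 3 higher in HT, and limma-voom 2 higher in HT; the cause was not tested. Between K422 and HT, 1 member was called with DESeq2 size factors and 0 to 3 with each pair left out, and between GCB and ABC lines 1 to 4. PSMA8 and PSMB11 were too low in counts for the ABC and GCB fits of treatment. Each point in time is 1 library, so that a time point and its library cannot be told apart.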
